A study of Mus musculus with 12 samples.

Results

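The matrix metalloproteinase (MMP) genes Mmp9, Mmp16, Mmp23 and Mmp28 and the tissue inhibitor gene Timp3 were followed across the 4 groups of a targeted RNA panel for the extracellular matrix (ECM) of mouse pancreatic stellate cells (PSCs). They were 5 of 420 genes on the panel and 5 of its 26 MMP and TIMP genes, and they were chosen by their normalized counts in these same libraries, with the differences between the 4 groups known. Their differences between groups are therefore described and carry no p-value here. The PSCs, which are the resident fibroblasts of the pancreas, came from a C57BL/6 mouse of genotype Rosa26CreERT2 +/WT PKN2 fl/fl and were immortalized with SV40 large T antigen. In these cells a tamoxifen-activated Cre recombinase removes the floxed gene of protein kinase N2 (PKN2) after exposure to 4-hydroxytamoxifen. All 4 groups carried the same floxed alleles and Cre, and whether wild-type (WT) cells received 4-hydroxytamoxifen is not given in the sources used here. WT and PKN2 KO PSCs received TGF-β1 at 5 ng/ml or its vehicle and were collected at 72 h, with 3 libraries in each group, labelled A, B and C. The methods name a single source mouse while the series text speaks of 3 lines of each genotype, and nothing says whether the letters are separate cultures, so the spread between libraries may be technical.

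MMPs are zinc-dependent endopeptidases that cleave collagens, proteoglycans and other proteins of the ECM. Most are secreted and some are held at the cell surface, and nearly all are made as inactive precursors. TIMPs bind the catalytic site and block it, and activated stellate cells, which lay down the fibrous stroma of pancreatic cancer, are a known source of both. TGF-β1 is a classical activator of these cells.

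Between 1074095 and 1473153 reads per library fell on the panel, and a library's normalized count was its read count divided by a single factor, so that 1 read was worth between 0.676 and 1.37 normalized counts. Of the 420 genes, 238 had at least 10 normalized counts in at least 3 libraries and were tested. The panel did not hold Pkn2, and the libraries thus give no check of its deletion. All 9 fibroblast or stellate cell markers on the panel had reads, with summed levels of 244209 to 563237 normalized counts per library, most of them from Col1a1 and Sparc. Lum had only 9 reads in all 12 libraries together and was not tested. Dcn had means of 21.5 in WT and 35.3 in PKN2 KO vehicle, but 0.98 and 3.69 after TGF-β1. Each gene was read through its own amplified fragments, so differences were taken between libraries and never between genes. Sums of marker levels add genes read through different fragments, so the part of a single gene in a sum is only a rough description. Differences are given on the log2(normalized count + 1) scale with their SE, and a gene was called where the adjusted p-value over the 238 genes, from limma, was under 0.05.

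Each of the 4 MMP genes encodes the catalytic zinc site, and its codons are shown as a feature that the 4 transcripts share. The site was located by searching each protein for its known pattern, so its presence is no result. In GENCODE vM21 these 33 bases lie in exon 8 of Mmp9 at chr2:164951133-164951165 (plus strand), in exon 5 of Mmp16 at chr4:18051748-18051780 (plus strand), in exon 5 of Mmp23 at chr4:155651528-155651560 (minus strand) and in exon 5 of Mmp28 at chr11:83444921-83444953 (minus strand), all on GRCm38. The capitals mark the codons of the 3 histidines that hold the zinc ion.
Mmp9: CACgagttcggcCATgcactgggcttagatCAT
Mmp16: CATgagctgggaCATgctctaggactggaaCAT
Mmp23: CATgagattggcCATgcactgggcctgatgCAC
Mmp28: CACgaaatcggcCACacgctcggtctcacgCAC
Position by position, between 18 and 24 of the 33 bases were identical in a pair of these genes. Mmp9 and Mmp23 shared 24 bases, and Mmp16 and Mmp28 shared 18. Timp3, at chr10:86300372-86349506 on the plus strand, encodes no protease.

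Mmp9 encodes gelatinase B, a secreted enzyme that degrades denatured collagen and the type IV collagen of basement membranes, and its gene lies at chr2:164940780-164955850 on the plus strand. In vehicle it was barely read. The 3 WT vehicle libraries held 0, 0 and 1 read, and the 3 PKN2 KO vehicle libraries held 2, 2 and 0 reads. After TGF-β1 its normalized counts in WT PSCs were 284, 149 and 214 (mean 216 ± 67.9, SD, n = 3), from 188 to 241 reads a library. In PKN2 KO PSCs they were 21.9, 28.4 and 45.2 (31.8 ± 12.0, SD, n = 3), from 16 to 37 reads. Every TGF-β1 library thus lay above every vehicle library, and the 3 PKN2 KO libraries lay below the 3 WT libraries. The level after TGF-β1 was 6.67-fold lower in PKN2 KO PSCs, a log2 difference of -2.74 ± 0.51 (SE). In 12 fits that left out 1 library it stayed at -3.01 to -2.51 and was called each time. Since Mmp9 was chosen on these same libraries, these calls are a description and no test. In bulk RNA, fewer cells expressing a gene and less RNA per cell cannot be told apart. Because vehicle libraries held so few reads, the size of the induction was set by them. Pooled over libraries, the ratio of TGF-β1 to vehicle was 691 in WT (652 against 1 read, exact 95% interval 124 to 27331) and 25.5 in PKN2 KO PSCs (86 against 4 reads, 9.59 to 95.5), intervals that cover counting error only.

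**Figure D1:**
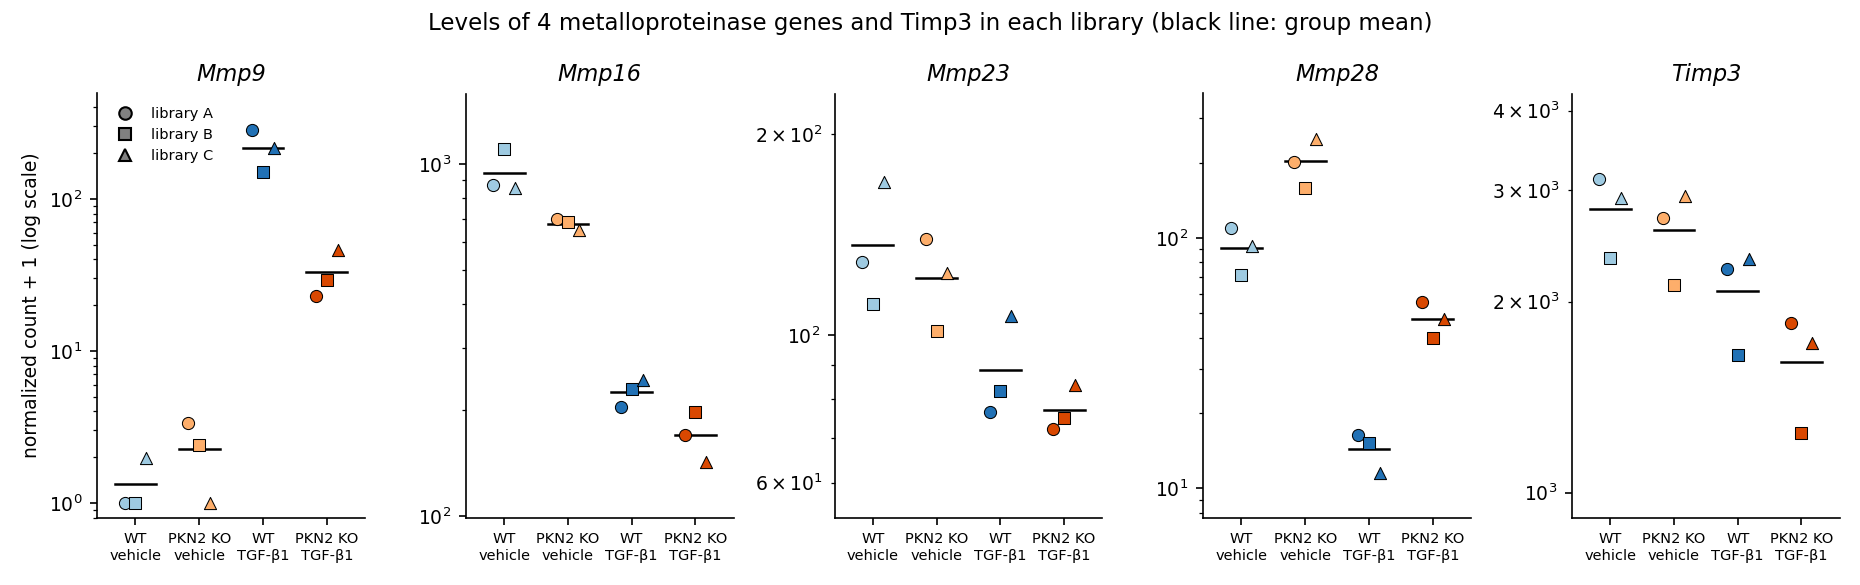
Normalized counts plus 1, on a log axis, of Mmp9, Mmp16, Mmp23, Mmp28 and Timp3 in each of 12 libraries, by group, with the library letter as the symbol and the group mean as a black line. Mmp9 rose from at most 2.34 normalized counts in vehicle to between 21.9 and 284 after TGF-β1, Mmp16 and Mmp28 fell with TGF-β1 in both genotypes, and Mmp28 in PKN2 KO libraries lay above WT in either treatment.

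Mmp16 encodes a transmembrane enzyme, also called MT3-MMP, that can activate the precursor of gelatinase A at the cell surface, and its gene lies at chr4:17852893-18119145 on the plus strand. Normalized counts in WT were 873, 1103 and 857 in vehicle (944 ± 137, SD, n = 3) and 203, 228 and 242 after TGF-β1 (225 ± 19.9). In PKN2 KO PSCs they were 700, 684 and 650 in vehicle (678 ± 25.6) and 170, 197 and 142 after TGF-β1 (169 ± 27.7). The 4 groups did not overlap, in the order WT vehicle, PKN2 KO vehicle, WT TGF-β1, PKN2 KO TGF-β1. TGF-β1 lowered Mmp16 about equally in both genotypes, by 4.17-fold in WT (log2 -2.06 ± 0.17, SE) and by 4.02-fold in PKN2 KO PSCs (-2.01 ± 0.17), and both differences were called in all 24 alternative fits. The genotypes differed less. Mmp16 was 1.38-fold lower in PKN2 KO PSCs in vehicle (log2 -0.47 ± 0.17) and 1.33-fold lower after TGF-β1 (-0.41 ± 0.17), and neither difference was called. With TMM scaling both were called, at -0.68 and -0.61.

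Mmp23 encodes a short membrane-anchored MMP without the hemopexin domain of most others, and its gene lies at chr4:155650655-155653384 on the minus strand. In WT its normalized counts were 127, 110 and 169 in vehicle (135 ± 30.0, SD, n = 3) and 75.5, 81.4 and 106 after TGF-β1 (87.5 ± 16.0). In PKN2 KO PSCs they were 138, 100 and 123 in vehicle (121 ± 19.1) and 71.1, 73.9 and 83.0 after TGF-β1 (76.0 ± 6.20). Vehicle libraries lay above TGF-β1 libraries within each genotype, and WT and PKN2 KO libraries overlapped in both treatments. The log2 difference with TGF-β1 was -0.62 ± 0.25 (SE) in WT, which was not called, and -0.65 ± 0.25 in PKN2 KO PSCs, which was called. The call in PKN2 KO PSCs was lost in 7 of the 12 fits without 1 library. They were those without KO vehicle A (-0.54) or C (-0.63), without KO TGF-β1 A (-0.60), B (-0.63) or C (-0.71), and without WT TGF-β1 A or B, where the difference stayed at -0.65. Median-of-ratios scaling (-0.58) and the fit with no filter on low values (-0.65) also lost it. The WT difference in turn was called in 10 of 12 other alternatives, among them TMM (-0.65) and total count scaling (-0.86), and without WT vehicle B (-0.75), WT TGF-β1 C (-0.76) or KO vehicle B (-0.62). The differences between genotypes were -0.16 ± 0.25 in vehicle and -0.19 ± 0.25 after TGF-β1, and without WT vehicle C the former was 0.01.

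Mmp28 encodes epilysin, a secreted MMP, and its gene lies at chr11:83440768-83463071 on the minus strand. In WT PSCs its normalized counts were 109, 70.3 and 91.7 in vehicle (90.2 ± 19.2, SD, n = 3) and 15.3, 14.2 and 10.6 after TGF-β1 (13.4 ± 2.50). In PKN2 KO PSCs they were 200, 157 and 248 in vehicle (202 ± 45.6) and 54.7, 38.7 and 46.4 after TGF-β1 (46.6 ± 8.01). The 4 groups were again apart, with PKN2 KO vehicle highest, then WT vehicle, PKN2 KO TGF-β1 and WT TGF-β1. Between genotypes Mmp28 was 2.22-fold higher with PKN2 deleted in vehicle (log2 1.15 ± 0.29, SE) and 3.31-fold higher after TGF-β1 (1.73 ± 0.29), and both differences were called. The vehicle call was lost without WT vehicle B (0.98), WT vehicle C (1.17), KO vehicle A (1.14) or KO vehicle C (0.99), and the call after TGF-β1 was made in every fit run, at 1.49 to 1.85. TGF-β1 lowered Mmp28 in both genotypes, by 6.31-fold in WT (log2 -2.66 ± 0.29) and by 4.23-fold in PKN2 KO PSCs (-2.08 ± 0.29), and these calls too were made in every fit.

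Timp3 encodes an inhibitor that, unlike the other TIMPs, is held in the ECM, and that also blocks several ADAM and ADAMTS proteases. Normalized counts in WT were 3125, 2345 and 2911 in vehicle (2794 ± 403, SD, n = 3) and 2252, 1644 and 2334 after TGF-β1 (2076 ± 377). In PKN2 KO PSCs they were 2711, 2125 and 2937 in vehicle (2591 ± 419) and 1849, 1242 and 1719 after TGF-β1 (1603 ± 320). Vehicle libraries lay above TGF-β1 libraries in each genotype, in WT by a narrow margin, and neighboring groups in the order WT vehicle, PKN2 KO vehicle, WT TGF-β1, PKN2 KO TGF-β1 overlapped. Library B was the lowest of its group in all 4 groups. In the B libraries 1 read was worth 0.676 to 0.860 normalized counts, against 0.961 to 1.37 in the others, and the part of this scaling in the Timp3 values was not tested. With TGF-β1 the log2 difference was -0.43 ± 0.22 (SE) in WT, which was not called but was under each of the other 3 scalings (-0.69 to -0.47), and -0.70 ± 0.22, a 1.62-fold lower level, in PKN2 KO PSCs, which was called. The call in PKN2 KO PSCs was lost without KO vehicle A (-0.66), KO vehicle C (-0.60) or KO TGF-β1 B (-0.53). Between genotypes the differences were -0.11 ± 0.22 in vehicle, which became 0.02 without KO vehicle B, and -0.38 ± 0.22 after TGF-β1. Neither was called, but TMM, median-of-ratios and total count scaling each called the latter, at -0.57 to -0.39.

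The first comparison asked which of the genes PKN2 deletion changed without added TGF-β1. Of the 5 genes 1 was called, Mmp28, beside 13.9% of all 238 genes (10.9% higher and 2.94% lower), and the libraries of 2 genes, Mmp16 and Mmp28, did not overlap between genotypes, beside 32.4% of all genes. The median log2 difference was -0.11 over the 5 genes and 0.21 over all genes tested. After TGF-β1, 2 of the 5 genes were called, Mmp28 higher and Mmp9 lower, beside 15.1% of all genes (8.82% higher and 6.3% lower), and 3 did not overlap, beside 28.2%. The median was then -0.38 over the 5 genes and 0.13 over all genes. Since the 5 genes were chosen with these differences known, nothing is read from these shares. The panel median depended on the scaling, and so did the split of calls over all genes. In vehicle the deposited scaling gave a median of 0.21 and 26 higher and 7 lower calls, total count scaling 0.15 with 34 and 10, TMM -0.0019 with 20 and 13, and median-of-ratios scaling -0.02 with 20 and 21. After TGF-β1 the same scalings, in that order, gave 0.13 with 21 and 15, 0.12 with 42 and 23, -0.06 with 21 and 34, and 0.01 with 26 and 30. All 5 genes kept the sign of their difference between genotypes under the 4 scalings in both treatments.

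**Figure D2:**
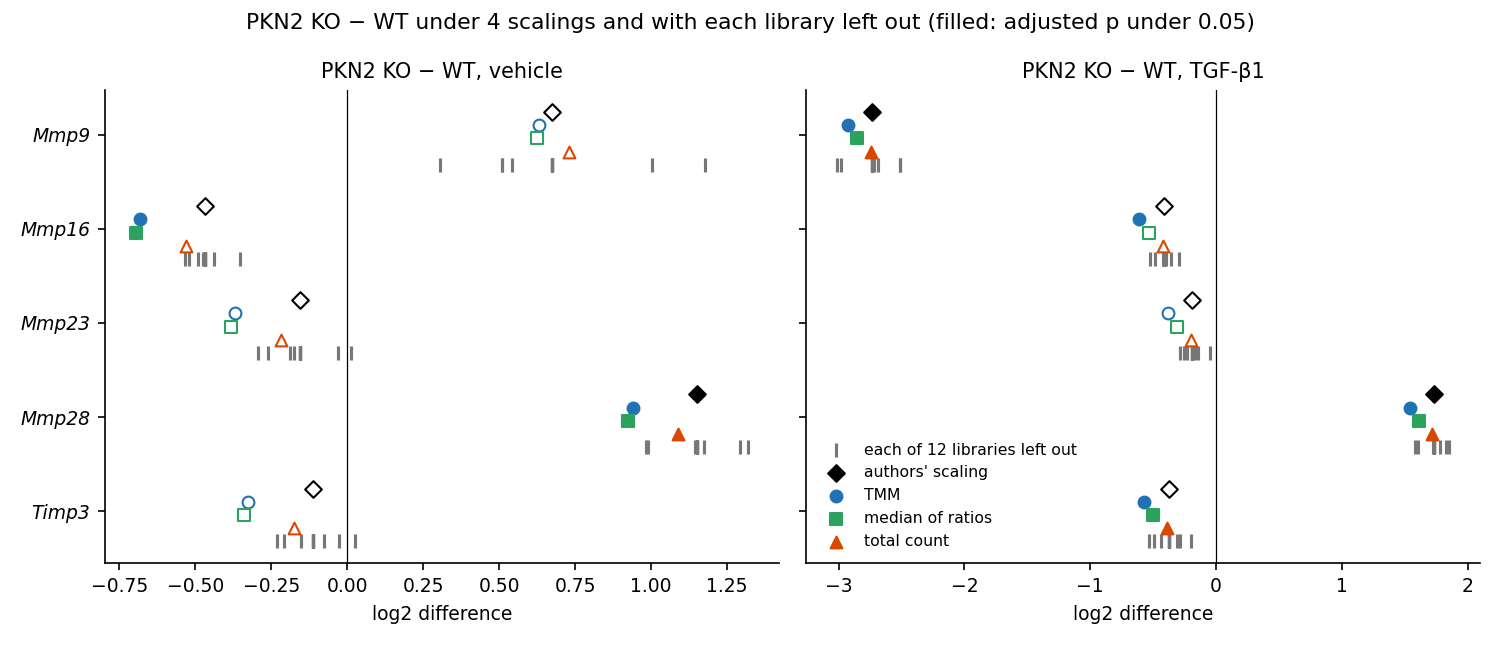
Log2 difference of PKN2 KO minus WT for the 5 genes in vehicle and after TGF-β1, under 4 scalings of the libraries (symbols, filled where called) and in the 12 fits that each left out 1 library (grey ticks). Mmp28 and, after TGF-β1, Mmp9 lie far from 0 under each scaling, while Mmp16 in vehicle moves from -0.47 to -0.70 and, of the 4 scalings, is called under TMM and the median of ratios.

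The next comparisons asked how the cells responded to TGF-β1. In WT, 3 of the 5 genes were called, Mmp9 higher and Mmp16 and Mmp28 lower, beside 50.8% of all genes (23.9% higher and 26.9% lower), and the libraries of all 5 did not overlap, beside 55.9%. In PKN2 KO PSCs all 5 were called, Mmp9 higher and the others lower, beside 48.7% (19.7% higher and 29% lower), and again none of the 5 overlapped, beside 52.9%. The medians were -0.62 in WT and -0.70 in PKN2 KO PSCs, against 0.00 and -0.14 over all genes. The interaction term, which measures whether the response to TGF-β1 differed between genotypes, was called for 1 of the 5 genes, beside 3.36% of all genes (0.84% positive and 2.52% negative). This was Mmp9, at a log2 of -3.41 ± 0.72 (SE). That call was lost without WT vehicle B (-3.25), KO vehicle A (-3.04) or B (-3.28), WT TGF-β1 A (-3.19) or C (-3.39), or KO TGF-β1 B (-3.36), and edgeR did not make it, at -4.45. The interaction was 0.58 ± 0.41 for Mmp28, 0.06 ± 0.23 for Mmp16, -0.03 ± 0.35 for Mmp23 and -0.27 ± 0.31 for Timp3, none of them called.

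**Figure D3:**
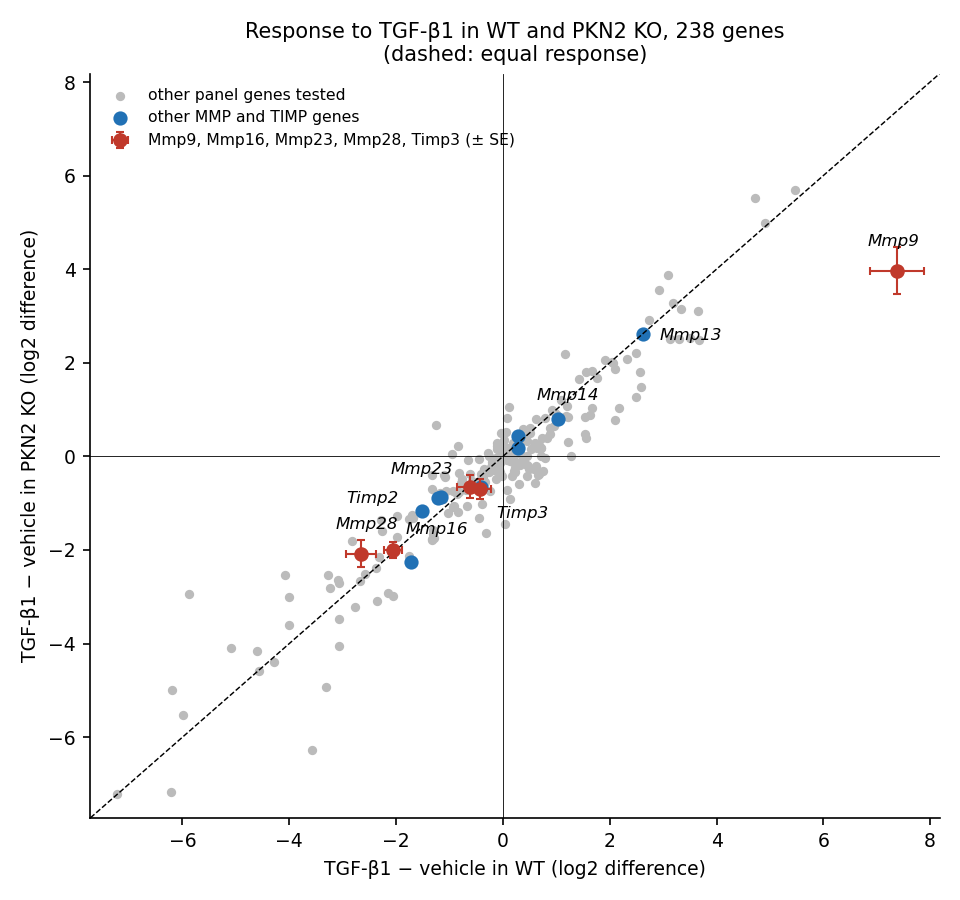
Log2 difference of TGF-β1 minus vehicle in WT (horizontal axis) and in PKN2 KO PSCs (vertical axis) for the 238 genes tested, with the 5 genes in red (bars, SE) and the other MMP and TIMP genes in blue. Mmp9 lies at 7.38 in WT and 3.97 in PKN2 KO, below the dashed line of equal response, and Mmp16, Mmp23, Mmp28 and Timp3 lie in the lower left, with responses that differ between genotypes by at most 0.58.

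Across the 12 libraries the 4 genes that fell with TGF-β1 varied together, with Pearson's r of log2 values from 0.50 (Mmp28 and Timp3) to 0.83 (Mmp16 and Mmp23), and each varied against Mmp9, from -0.58 (Timp3) to -0.90 (Mmp28). These r are descriptions, since the 12 points share 4 group levels and a scaling factor per library. The panel genes most like Mmp9 included Col27a1 (r = 0.95) and Flrt2 (0.95), and those most like Mmp16 were Efemp1 (0.98), Amigo2 (0.98) and Cdh26 (0.97). For Mmp23 they were Adamts1 (0.91), Serpini1 (0.88) and Adamts5 (0.87). Mmp28 was most like Adgre5, Prelp and Serpinb1a (0.98 each), and Timp3 was most like Plau (0.95), Nptn (0.95) and Cd9 (0.90). Prelp, which encodes a small leucine-rich proteoglycan, had the same order of group means as Mmp28, with 2969 normalized counts in PKN2 KO vehicle, 947 in WT vehicle, 411 in PKN2 KO TGF-β1 and 14.9 in WT TGF-β1.

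Promoter sequence is shown for the genes that fell with TGF-β1 and have an entry in the RefSeq table of promoters, which were Mmp23, Mmp28 and Timp3, that is 3 of the 5 genes. Each window is the stretch upstream of the annotated gene start, on the gene's own strand of GRCm38.p6, at chr4:155653385-155653634 (minus strand, 250 bases), chr11:83463072-83463290 (minus strand, 219 bases) and chr10:86300162-86300371 (plus strand, 210 bases). The table has 2 entries for Mmp23, and the window at the GENCODE gene start was taken. The capitals mark a match to the SMAD motif.
Mmp23: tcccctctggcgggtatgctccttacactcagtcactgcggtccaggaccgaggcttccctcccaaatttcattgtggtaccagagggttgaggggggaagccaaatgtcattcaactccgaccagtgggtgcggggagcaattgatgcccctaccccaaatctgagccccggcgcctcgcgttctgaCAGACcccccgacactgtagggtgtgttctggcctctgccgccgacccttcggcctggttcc
Mmp28: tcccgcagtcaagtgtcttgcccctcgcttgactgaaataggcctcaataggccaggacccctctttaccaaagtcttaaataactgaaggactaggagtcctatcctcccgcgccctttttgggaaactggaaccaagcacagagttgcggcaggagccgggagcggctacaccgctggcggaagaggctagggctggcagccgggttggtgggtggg
Timp3: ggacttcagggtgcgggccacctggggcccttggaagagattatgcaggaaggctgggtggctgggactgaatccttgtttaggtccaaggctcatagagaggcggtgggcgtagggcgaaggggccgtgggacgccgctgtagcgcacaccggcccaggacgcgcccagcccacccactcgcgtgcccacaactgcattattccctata
The SMAD motif was searched as CAGAC, the AP-1 motif as TGANTCA and the TEAD motif as GGAATG, each on both strands. Mmp23 held 1 SMAD match, at bases -62 to -58 from the RefSeq start, and no other match to these letters lay in the 3 windows. Among all 32851 promoters of the table, 42.2% held the SMAD letters, 6.75% the AP-1 letters and 12.6% the TEAD letters within 250 bases, and within 219 bases the shares were 38.4%, 6.08% and 11.4%.

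Of the 26 MMP and TIMP genes on the panel, 14 passed the filter on low values, 11 MMPs and 3 TIMPs, among them all 5 described here. Mmp9 and Mmp13 passed only through their TGF-β1 libraries, and Mmp15 only through its vehicle libraries. Mmp1a, Mmp7, Mmp12 and Mmp20 had no read in any library, and Mmp3, Mmp8, Mmp10, Mmp21, Mmp24, Mmp25, Mmp27 and Timp4 had between 3 and 62 reads in all 12 libraries together. Mmp27 was the only gene of these 8 with at least 7 reads in each of the 3 libraries of a group and none in another, a remark made after its values were seen. It had 7 to 19 reads in PKN2 KO vehicle libraries and none after TGF-β1, at least 3.22-fold lower with 3 reads per library as the floor.

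Of the 9 other MMP and TIMP genes tested, 0 were called between genotypes in either treatment by limma with the deposited scaling and no replicate block, by edgeR or by DESeq2, and 1, Mmp17 in vehicle, had an unadjusted p-value under 0.05 in that limma fit. With total count scaling Timp2 was called between genotypes after TGF-β1, and fits with a replicate block called others, given with the alternatives. With TGF-β1, 5 of the 9 in WT, beside 50.8% of all genes, and 6 in PKN2 KO PSCs, beside 48.7%, were called. Nothing is read from shares of so few genes. Both counts include Mmp13, and that in PKN2 KO PSCs includes Mmp15, genes that passed the filter through 1 treatment only. Mmp13, a collagenase, was higher in both genotypes, by 2.63 ± 0.67 (log2, SE) in WT and by 2.61 ± 0.67 in PKN2 KO PSCs. It went from at most 3 reads a vehicle library to between 5 and 20. Since it passed the filter on low values only through TGF-β1 libraries, its rise is a description and carries no p-value here. Mmp14, or MT1-MMP, the main activator of gelatinase A, rose by 1.03 ± 0.31 in WT (limma, adjusted p = 0.011) and by 0.80 ± 0.31 in PKN2 KO PSCs (adjusted p = 0.044). Mmp2, which encodes gelatinase A, differed by 0.28 ± 0.35 (adjusted p = 0.55) and 0.44 ± 0.35 (adjusted p = 0.36) with TGF-β1, and its libraries overlapped. Mmp11, or stromelysin-3, fell by 1.15 ± 0.21 (adjusted p = 0.0003) and fell by 0.86 ± 0.21 (adjusted p = 0.0034). Mmp19 fell by 1.22 ± 0.21 (adjusted p = 0.00015) and fell by 0.89 ± 0.21 (adjusted p = 0.0024). Mmp15, or MT2-MMP, with at most 15 reads a library, was lower by 2.26 ± 0.80 in PKN2 KO PSCs, which was called. Its difference in WT was -1.72 ± 0.80, which was not called. Since it passed the filter only through vehicle libraries, these differences are a description and carry no p-value here. Without KO vehicle A or without KO vehicle C, the calls of Mmp14 and Mmp15 in PKN2 KO PSCs were lost. Among the inhibitors Timp2 fell by 1.52 ± 0.26 (adjusted p = 0.00017) and fell by 1.16 ± 0.26 (adjusted p = 0.0018), whereas Timp1 was at 0.29 ± 0.19 (adjusted p = 0.25) and 0.17 ± 0.19 (adjusted p = 0.51). Over all 14 genes the median log2 difference was -0.53 for WT against -0.68 with PKN2 deleted. The calls were 3 up and 5 down in WT and 3 up and 8 down in PKN2 KO PSCs. The 5 chosen genes, Mmp13 and Mmp15 were counted among the 14, so these counts are a description.

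**Figure D4:**
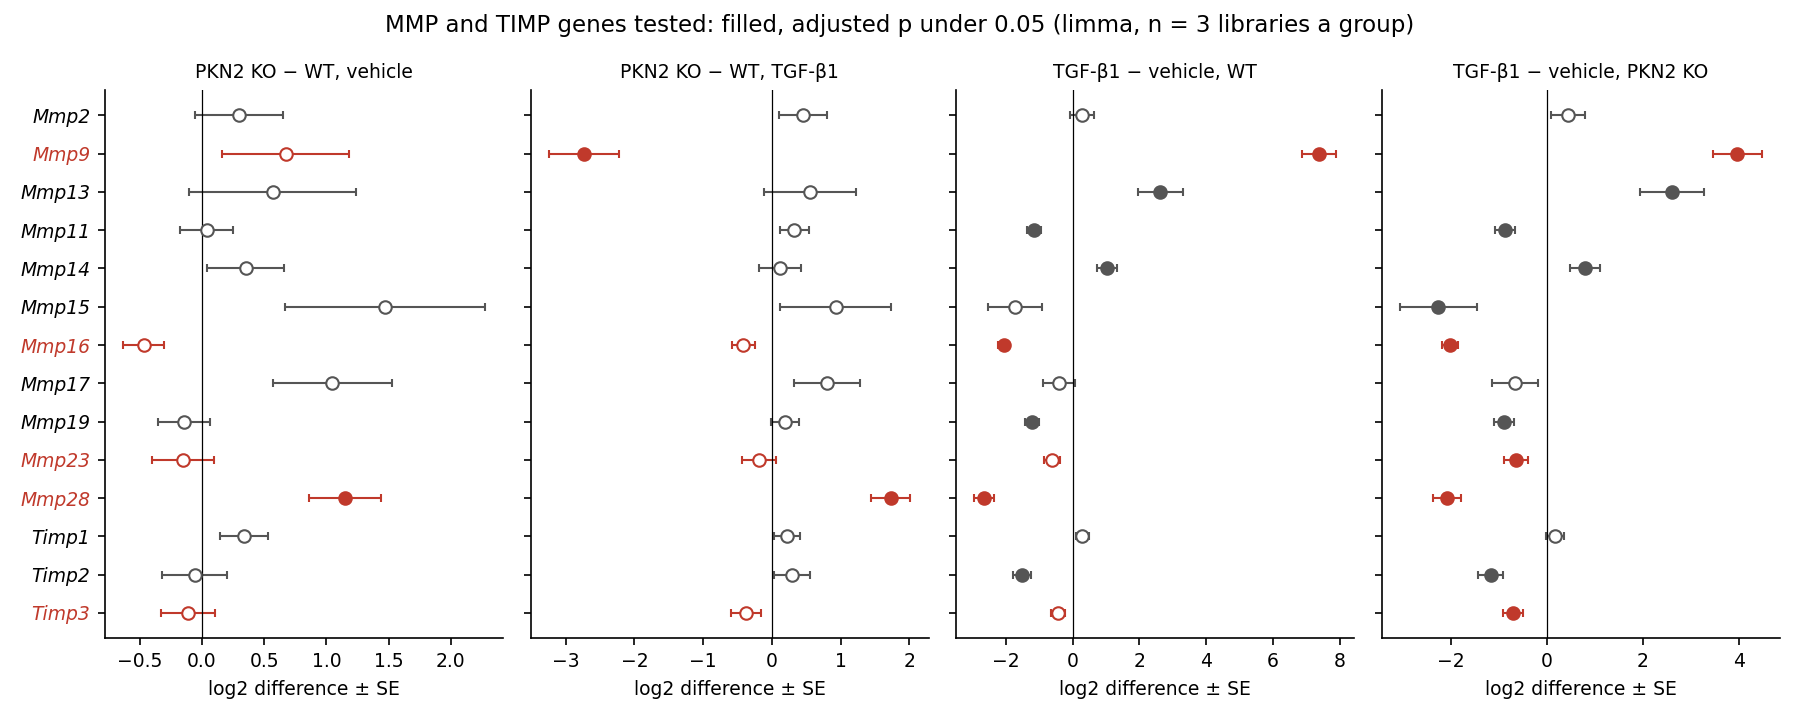
Log2 difference with its SE of the 14 MMP and TIMP genes tested, in 4 comparisons, each with its own horizontal scale, with the 5 genes described in red and filled points where called. Only Mmp28 and, after TGF-β1, Mmp9 are filled in the 2 panels on the left, which compare genotypes, and 8 and 11 points are filled in the 2 panels on the right, which compare treatments.

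Genes whose proteins act beside these enzymes were taken from 3 lists. Of the 5 genes of plasminogen activation, a cascade that turns MMP precursors into active enzymes, 4 were tested, with a median log2 difference with TGF-β1 of -0.16 in WT and -0.53 in PKN2 KO PSCs. With TGF-β1, Plau, which encodes urokinase, fell by 1.02 ± 0.22 (log2, SE, limma, adjusted p = 0.0013) in WT and fell by 1.22 ± 0.22 in PKN2 KO PSCs (adjusted p = 0.00041). Serpine2 was higher in PKN2 KO PSCs by 2.67 ± 0.54 in vehicle (adjusted p = 0.0041) and by 2.22 ± 0.54 after TGF-β1 (adjusted p = 0.011). With TGF-β1 it fell by 1.74 ± 0.54 in PKN2 KO PSCs (adjusted p = 0.015). Its difference in WT was -1.28 ± 0.54 (adjusted p = 0.061), which was not called, though the WT libraries did not overlap between treatments. The interaction term of Serpine2 was -0.46 ± 0.76 and was not called.

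All 7 ADAM and ADAMTS genes listed as targets of TIMP3 were tested, and with TGF-β1 2 rose and 3 fell in each genotype, beside 23.9% higher and 26.9% lower of all genes in WT and 19.7% and 29% in PKN2 KO PSCs, with a median log2 difference of -0.22 in WT and -0.23 in PKN2 KO PSCs. Adamts5, an aggrecanase, fell by 4.61 ± 0.26 (log2, SE) in WT (limma, adjusted p = 6.6e-09) and fell by 4.17 ± 0.26 in PKN2 KO PSCs (adjusted p = 1.1e-08), and in vehicle its PKN2 KO minus WT difference was -1.15 ± 0.26 (adjusted p = 0.0086). Adam12 rose by 2.57 ± 0.19 (adjusted p = 3.8e-08) and 1.80 ± 0.19 (adjusted p = 1.5e-06), and it was higher in PKN2 KO PSCs in vehicle by 0.66 ± 0.19 (adjusted p = 0.031). Adamts4 rose by 1.91 ± 0.17 (adjusted p = 2.5e-07) and 2.06 ± 0.17 (adjusted p = 1.4e-07). Adamts1 and Adamts2 were the other members that fell in both genotypes. Of the 6 type IV collagen genes, whose products are substrates of MMP9, 4 were tested. Col4a1 was higher in PKN2 KO PSCs by 0.94 ± 0.19 in vehicle (adjusted p = 0.0038) and by 0.99 ± 0.19 after TGF-β1 (adjusted p = 0.0016), and Col4a2 by 0.95 ± 0.28 (adjusted p = 0.038) and 0.96 ± 0.28 (adjusted p = 0.032). Col4a5 and Col4a6 fell with TGF-β1 in both genotypes, but Col4a6 passed the filter on low values only through vehicle libraries, so its fall is a description. The median difference between genotypes over the 4 collagen genes was 0.94 in vehicle and 0.84 after TGF-β1.

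Since Mmp9 is also made by leukocytes, markers of other cell types were summed beside it. Of 10 leukocyte markers 4 were at 0 in all libraries, among them Itgal, Clec4e and Cd84. The summed level of the list was 16.5 to 26.4 normalized counts in WT vehicle, 24.6 to 36.0 in PKN2 KO vehicle, 5.77 to 9.44 in WT TGF-β1 and 6.84 to 14.6 in PKN2 KO TGF-β1. Most of it was Itgb2, with group means of 19.1, 21.5, 7.18 and 6.10 in that order. Itgax, Siglec1 and Clec7a had reads in PKN2 KO TGF-β1 libraries alone. The part of leukocyte transcripts in the Mmp9 level was not tested. The 10 endothelial markers, of which Mmrn1 and Sele were at 0, summed to 13.0 to 24.7 normalized counts in vehicle libraries. The sums were 48.0 to 51.9 in WT TGF-β1 and 33.0 to 37.0 in PKN2 KO TGF-β1, so the sum moved with Mmp9. Single markers did not all do so. After TGF-β1, group means of Cd93 (15.5 in WT, 6.18 in PKN2 KO), Mmrn2 (8.65, 4.14), Cdh5 and Stab1 were lower with PKN2 deleted. Those of Selp (12.0, 13.8), Pecam1 (7.59, 9.86) and Icam2 were higher. Mmrn2 means in vehicle were 8.42 in WT and 11.1 in PKN2 KO, so it did not rise in both genotypes. The part of endothelial transcripts in the Mmp9 level was not tested. The 7 epithelial markers, with Cdh16 at 0, summed to 6.10 to 45.9 over all libraries.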

How the data were processed

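RNA of 12 libraries, 3 in each of 4 groups of immortalized mouse PSCs, was read with a QIAseq targeted panel. Per the labels and methods the authors aligned reads with STAR to mm10, ran DESeq2 1.32, and deposited raw counts and 2 tables of counts normalized to reference genes, values that are a signal on a linear scale from 0 up. Groups came from the sample labels. The header of the raw table repeats a set of names, and 6 of its columns were not used here. Normalized values were whole multiples of 1 read for 5040 of 5040 values (within 0.01 reads), and the reads so recovered matched the raw counts deposited for 420 genes in the 6 raw columns used. Those columns were the WT vehicle and PKN2 KO TGF-β1 libraries. Reads recovered for the PKN2 KO vehicle and WT TGF-β1 libraries were not checked against raw counts. Columns of the authors' own comparisons were not used.

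The members and lists were chosen with earlier results of these data known. log2(normalized count + 1) of genes with at least 10 in at least 3 libraries was fitted with limma 3.58.1 in R 4.3.3 (4 group means, eBayes with a trend, robust), with Benjamini-Hochberg adjustment over 238 genes. The fit was tested on simulated data. Alternatives used edgeR 4.0.16 and DESeq2 1.42.0 on the recovered reads, other scalings, filters, pseudocounts and variance models, the letter as a block, and each library left out.

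Named were the 5 members, Mmp2, Mmp14, Timp1 and Timp2, any other MMP or TIMP past the threshold in a comparison, untested ones once as a group, from each pathway list up to 3 genes past the threshold in a comparison, and the 3 genes most correlated with each member; some of these genes are not reported here. Where 4-OHT exposure of WT cells and the panel's amplified positions are concerned, the sources used here give nothing. Ratios of pooled reads carry exact conditional 95% intervals. The depth per library and the worth of 1 read bound what low counts can show.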

Additional observations from a re-analysis of the deposited data

Results flagged for a closer look

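Mmp9 had a log2 difference with TGF-β1 of 7.38 in WT, against 3.97 with PKN2 deleted. It was set apart here by the interaction term of the limma fit over 238 genes, at -3.41 ± 0.72 (SE). Mmp9 was chosen on these values and passed the filter on low values only through its TGF-β1 libraries, so the term is a description and no test. Its vehicle libraries held 0 to 2 reads, and the size of the term rests on them. The call was lost in 6 of the 12 fits that left out 1 library, and edgeR did not make it.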

How the results depend on the processing

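The 5 counts of called MMP and TIMP genes, out of 14 tested, were 1 for PKN2 KO against WT in vehicle, 2 after TGF-β1, 8 for TGF-β1 against vehicle in WT, 11 in PKN2 KO and 1 for the interaction. Of all 238 genes, 13.9%, 15.1%, 50.8%, 48.7% and 3.36% were called in the same order. In vehicle, TMM, median-of-ratios scaling and DESeq2 each gave 2, adding Mmp16. After TGF-β1, TMM gave 4, total count scaling 4, Timp2 among them, and at least 10 normalized counts in every library 1. That filter, which left 10 of the 14 genes and not Mmp9, gave 7 for TGF-β1 in PKN2 KO and 0 for the interaction, and edgeR also gave 0 for the interaction. Leaving out each library gave 0 to 1 in vehicle, 2 to 3 after TGF-β1, 7 to 9 in WT, 7 to 11 in PKN2 KO (7 without KO vehicle A or without KO vehicle C) and 0 to 1 for the interaction. The other alternatives stayed within 1.5 times the main count. No difference of the 5 genes that was called changed sign in any alternative, and the causes of these changes were not tested.

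The letters A, B and C pair no libraries by the labels. Deviations of same-lettered libraries from their group means had a correlation across genes of 0.389 on average over 18 pairs, from -0.23 to 0.70, and 9 of 12 libraries correlated best with their own letter, a hint from the data and not from the design. With the letter as a replicate block the counts were 6 in vehicle, 7 after TGF-β1, 13 in WT, 12 in PKN2 KO and 1 for the interaction, with infinite prior degrees of freedom for 197 of 238 genes. With the block and no trend of the variance they were 3, 5, 11, 12 and 1. The share of all 238 genes called in these block fits is not given here, so nothing is read from their counts about this family. Between genotypes the block added Mmp14, Mmp16, Mmp17, Mmp2 and Timp1 in vehicle and Mmp11, Mmp16, Mmp2, Timp2 and Timp3 after TGF-β1, and without the trend Mmp16 and Mmp17 in vehicle and Mmp16, Mmp2 and Timp3 after TGF-β1. Both block fits called Mmp23 and Timp3 with TGF-β1 in WT. The reads per library limit what could be seen of the 12 MMP and TIMP genes not tested.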
